A study of Drosophila melanogaster with 6 samples.

Results

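The nuclear genes of oxidative phosphorylation were followed in wing imaginal discs of Drosophila melanogaster, sacs of larval epithelium from which wings and notum develop. They were chosen by FlyBase symbol, as genes whose symbol begins with ND-, UQCR-, ATPsyn or COX followed by a digit from 4 to 8, together with SdhA to SdhD and RFeSP. This gave 85 of 17525 listed genes: 40 of complex I, 4 of complex II, 10 of complex III, 16 of complex IV and 15 of complex V. Other nuclear components with names of their own, such as blw, sun and Cyt-c-p, fall outside that rule and are given only as context.

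The respiratory chain sits in the inner mitochondrial membrane. Complex I takes electrons from NADH and complex II takes them from succinate; both pass them through ubiquinone to complex III, and cytochrome c carries them to complex IV, where oxygen is reduced. Complexes I, III and IV pump protons, and complex V, the ATP synthase, uses the proton gradient to make ATP. Most subunits are encoded in the nucleus and the rest in mitochondrial DNA, so that both genomes supply every complex but complex II.

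The series compared 3 control libraries, from discs with the driver MS1096-Gal4 alone, with 3 libraries from discs in which the same driver expressed an RNAi against dNKAP, the fly homologue of the nuclear protein NKAP. MS1096-Gal4 is known to be most active in the wing pouch, so a whole disc also holds cells in which the RNAi is hardly driven; both groups carry the driver, and the labels give neither the age of the larvae nor a control hairpin. Values are FPKM, which divides by the length of the transcript and the size of the library. Levels can thus be compared between genes only as far as their transcripts are listed, and some values below are partial. The tables summed to 4.81, 6.44 and 4.71 gigabases of aligned sequence in the controls and to 4.14, 4.38 and 4.55 in the dNKAP RNAi libraries. Every control was thus deeper than every dNKAP RNAi library, and the part of depth in the results was not tested. CG6066, the dNKAP gene, was at 23.6, 22.8 and 26.6 FPKM in the controls and at 13.96, 13.3 and 11.4 in the dNKAP RNAi libraries, with no overlap (limma adjusted p = 0.0146; 0.00446 to 0.134 over the alternatives tried). Of the libraries left out in turn, control 1, control 3 and dNKAP RNAi 2 each ended that call. Of the 10 wing disc epithelium markers 9 were above 0 in every library, and pdm2 was listed at 0 in controls 2 and 3. The muscle precursor markers Him and Mef2 were at 17.3 to 38.4 and 20.4 to 31.9 FPKM, while twi was listed at 0 in every library, which does not show that it was absent. Of 7 fat body markers 3 were above 0, and their summed level was 73.8, 18.1 and 1.94 FPKM in the controls against 347, 173 and 590 in the dNKAP RNAi libraries; Lsp1beta, Lsp2, Fbp2 and apolpp were listed at 0. The part of such tissue in the results below was not tested. Summed levels of the muscle, haemocyte and tracheal markers overlapped between the groups. Those of the 9 wing disc epithelium markers above 0 in every library did not, at 548, 554 and 560 FPKM in the controls against 578, 591 and 592. Singly these markers went both ways: 6 had higher means, and 0 lay above every control. The other 3 had lower means, and tsh and ct lay below every control in all dNKAP RNAi libraries. The part of these markers in the results was not tested either. Fewer cells of a type and less RNA per cell cannot be told apart in whole discs. Nothing in the labels says that the libraries of a group came from separate crosses or dissections, so a p-value here speaks for the spread of these libraries and may cover technical spread alone.

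Of the 85 genes, 37 were above 0 in every library, 16 were listed at 0 in some libraries and 32 were listed at 0 in all. Among the 32 were subunits without which the chain does not work: ND-24, which carries an iron-sulphur cluster of the NADH-oxidising arm of complex I, SdhC, a membrane anchor of complex II, UQCR-C2, a core protein of complex III, and COX5B of complex IV. Wing discs respire, so a listed 0 was not read as absence of RNA. For 19 of the 20 such genes that are not duplicates, the Ensembl annotation has at least 1 transcript with no row among those analysed here, 95% of them, and for 16 of those genes such a transcript had the same introns as a listed one. The exception was ND-B8. Among the 34 non-duplicate genes above 0 in every library, 6 (17.6%) had such a transcript. Over all genes listed at 0 in every library the share was 21.9%. Exons of 14 of the 20 genes, ND-B8 among them, overlap those of another gene, against 12 of the 34. The part of this overlap in the listed zeros was not tested.

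**Figure D1:**
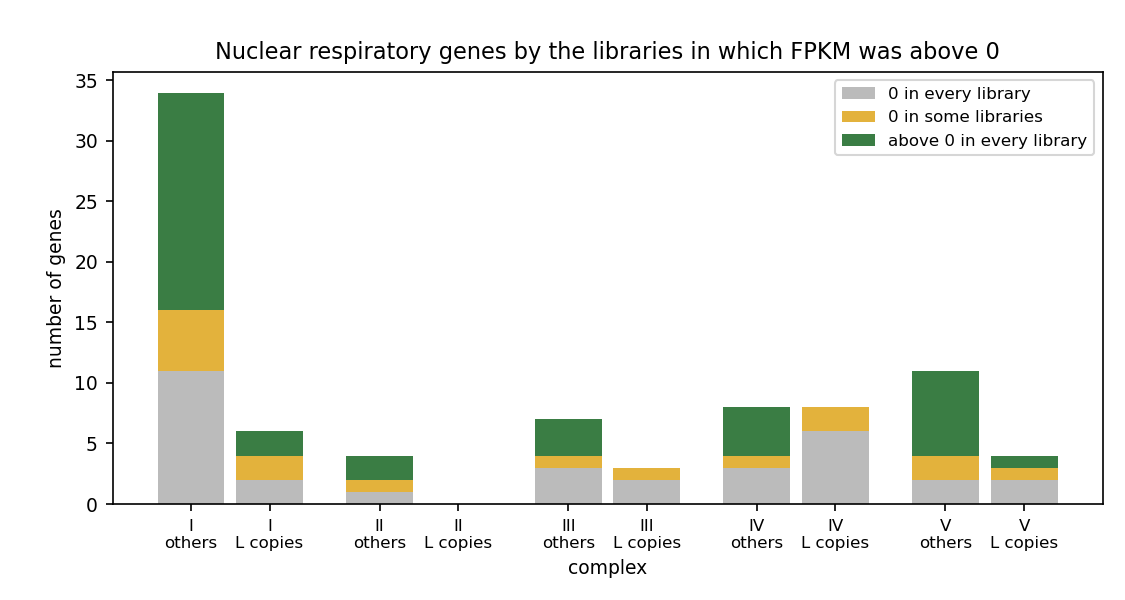
Number of nuclear respiratory genes (vertical axis) in each complex, split into duplicates whose symbol ends in L and all others, and coloured by the libraries in which their FPKM was above 0. Of the 85 genes 37 were above 0 in every library, and 3 of the 21 L copies were.

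The L copies are duplicates of subunit genes, several of which are known in Drosophila to be expressed in the testis. All 21 were low or listed at 0, and 12 were at 0 in every library. ND-20L lay between 0.385 and 1.21 FPKM, where ND-20, an iron-sulphur core subunit next to the quinone site of complex I, lay between 135 and 165. ATPsynbetaL reached 0.502 FPKM, where ATPsynbeta, the catalytic subunit of the ATP synthase, lay between 233 and 444. The highest copy was ATPsynepsilonL, at up to 10.5 FPKM, beside 351 to 501 for sun, the epsilon subunit. Where the standard gene was above 0 in every library, its level was thus far above that of its copy. Pairs in which the standard gene was itself listed at 0, such as COX5B with COX5BL or, in 5 libraries, ND-51 with ND-51L1, allow no comparison.

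The 44 genes whose mean reached 1 FPKM were tested, and 34 of these were above 0 in every library: 18 of complex I, 2 of complex II, 3 of complex III, 4 of complex IV and 7 of complex V. Mean levels differed between the complexes. Complex I genes ran from 4.51 to 276 FPKM with a median of 98.8, and the 2 complex II genes stood at 108 and 127. The 3 complex III genes stood between 20.3 and 224. The 4 complex IV genes ran from 325 to 525 and the 7 complex V genes from 139 to 577. Those ranges do not overlap between complexes II and IV, but complexes IV and V overlap. The listed transcripts of ATPsynC, ATPsynD and ATPsynO were less abundant in every library than another isoform of the same locus. They stood at 59 to 76%, 48 to 58% and 72 to 93% of that isoform, so these complex V levels can be partial. ATPsynC, of which many copies form the rotating membrane ring of complex V, was the highest of all at 577 FPKM, and COX6B, an accessory subunit of complex IV, followed at 525.

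**Figure D2:**
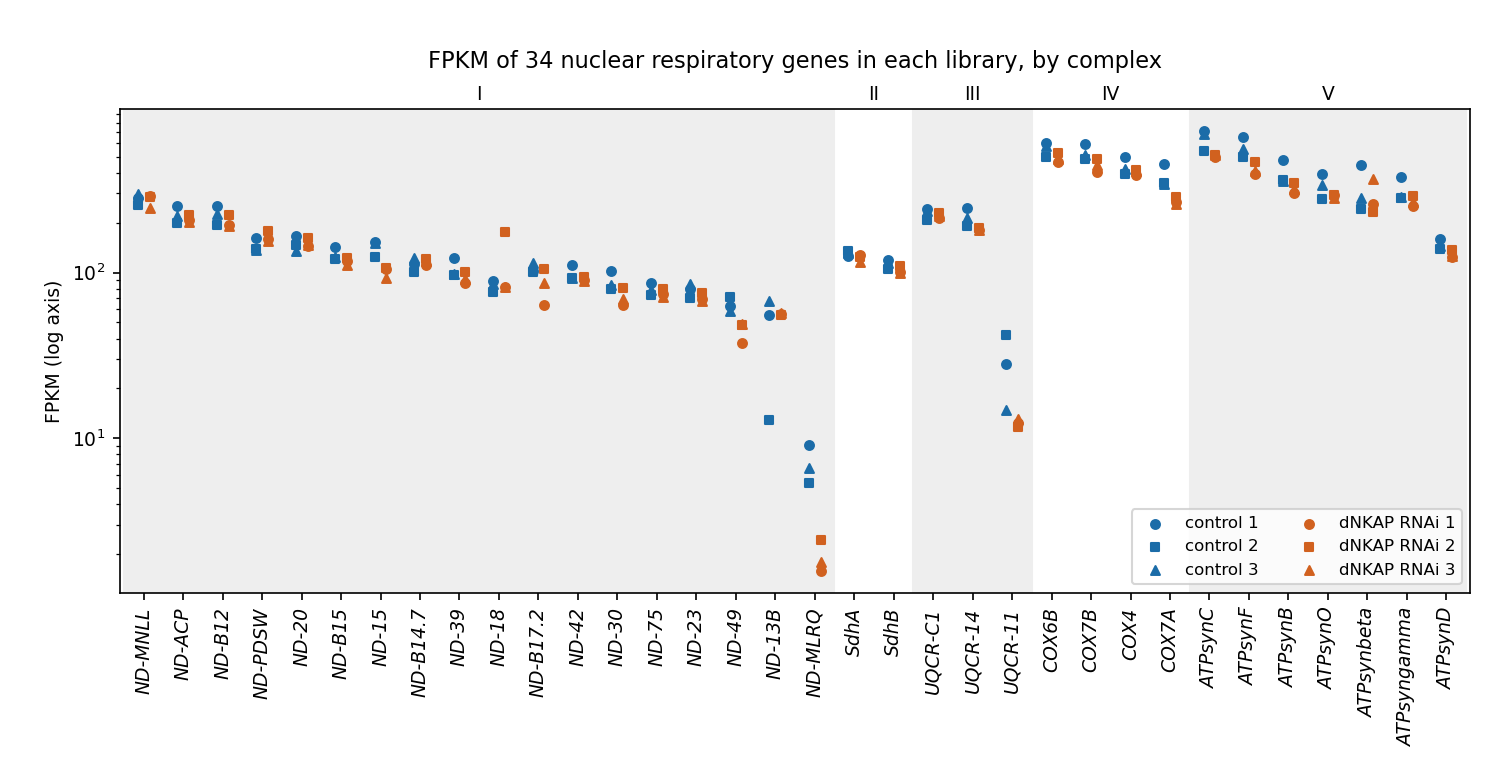
FPKM (log axis) of the 34 genes above 0 in every library, ordered by complex and mean level. Each point is 1 library, blue for control and orange for dNKAP RNAi, with a marker for the replicate number; the 34 genes run from ND-MLRQ at a mean of 4.51 FPKM to ATPsynC at 577.

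Between the groups, 1 gene passed the threshold as higher in dNKAP RNAi (RFeSP, listed at 0 in every control), 1 as lower (ND-MLRQ), and 42 of 44 did not pass. Over all 6506 tested genes 3.21% were called higher and 0.507% lower, and a single gene each way among 44 is too few to read against those shares. At an unadjusted p under 0.05 there were 9 of 44, where 19% of all tested genes were. Most genes nevertheless had a lower mean: 33 of 44, against 45.6% of all tested genes, and 29 of the 34 above 0 in every library, against 45.3% of all such genes. Among those 34, the 3 dNKAP RNAi libraries were all below the 3 controls for 11 genes and all above for 0, where 12.4% and 18.4% of all such genes were. The median log2 change was -0.15 over the 44 and 0.03 over all tested genes. By complex, over the tested genes, it was -0.12 in complex I, -0.12 in complex II, -0.14 in complex III, -0.18 in complex IV and -0.21 in complex V. Over the 34 genes above 0 in every library the medians were -0.12, -0.11, -0.25, -0.22 and -0.22 in the same order, so the ranking of the complexes depends on the genes taken. Since the list was chosen with results in view, these are descriptions with no test. The 95% intervals of limma, which are not adjusted for the number of genes, lay within 1 log2 unit of 0 for 30 of the 34 genes; the others were ND-MLRQ, UQCR-11, ND-18 and ND-13B.

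**Figure D3:**
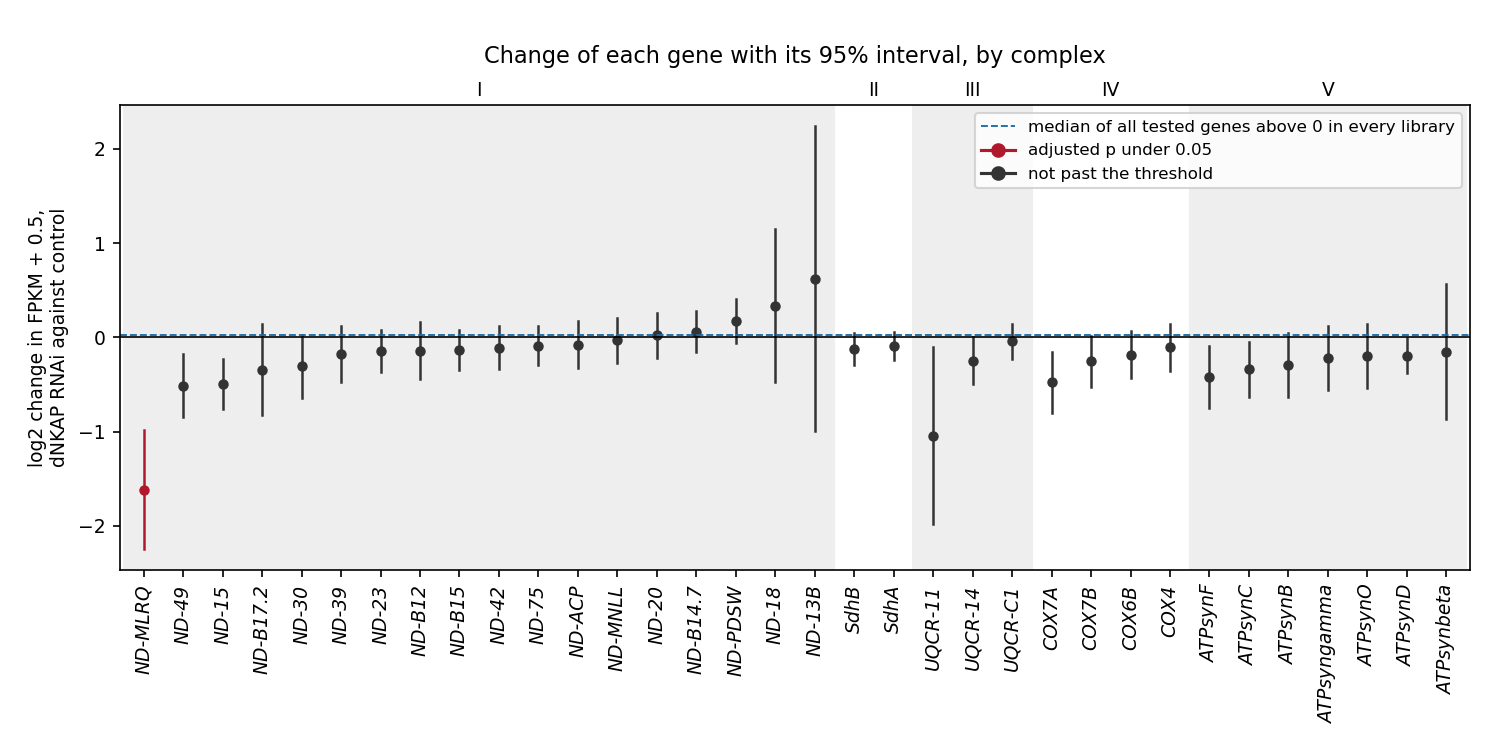
Log2 change in FPKM + 0.5 between dNKAP RNAi and control (vertical axis) for the 34 genes, with limma's 95% interval, ordered within each complex. Of the 34, 29 lie below 0 and 5 above, and ND-MLRQ (red) is the one past the threshold.

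The controls spread more widely than the dNKAP RNAi libraries. Added over the 34 genes, FPKM came to 8469, 6690 and 7371 in the controls and to 6224, 6880 and 6420 in the dNKAP RNAi libraries, or 7510 ± 898 against 6508 ± 337 (SD, n = 3 each), a mean lower by 13.3%, with groups that overlapped. Control 1 stood apart: it was the highest library for 24 of the 34 genes and the lowest for 0. Without control 1 the median over the tested genes was -0.07, and without control 2, the lowest control, -0.24. Genes above 100 FPKM of any function also had lower medians in the dNKAP RNAi libraries, at -0.11, -0.04 and -0.11 against the control mean, beside -0.22, -0.07 and -0.22 for the 34 genes.

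Summed by complex over the same 34 genes, the groups overlapped in complex I, and in complex III they were kept apart only by an assembled fragment. Complex V summed to 3220, 2334 and 2644 FPKM in the controls and to 2121, 2273 and 2278 in the dNKAP RNAi libraries, which were all lower, by 18.6% in the mean; without control 1 the difference was -10.6%. Complex IV summed to 2152, 1716 and 1842 against 1517, 1710 and 1594, again with no overlap, and was lower by 15.55%; without control 1 the difference was -9.66%. Complex III summed to 514, 441 and 463 against 405, 427 and 413. The groups did not overlap, and the difference was -12.2%. Of the 441 in control 2, 29.5 came from an assembled UQCR-11 fragment of 237 bases. Without that fragment control 2 would lie below the 427 of dNKAP RNAi 2, so the groups would overlap. Complex II, summed over SdhA and SdhB, was steady at 244, 241 and 245 in the controls and came to 229, 234 and 215, all lower, with a difference of -7.13%. Complex I summed to 2340, 1958 and 2177 against 1951, 2236 and 1920, where the groups overlapped. Its difference was -5.69%, and it ran from -10.3% without dNKAP RNAi 2 to -1.55% without control 1.

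**Figure D4:**
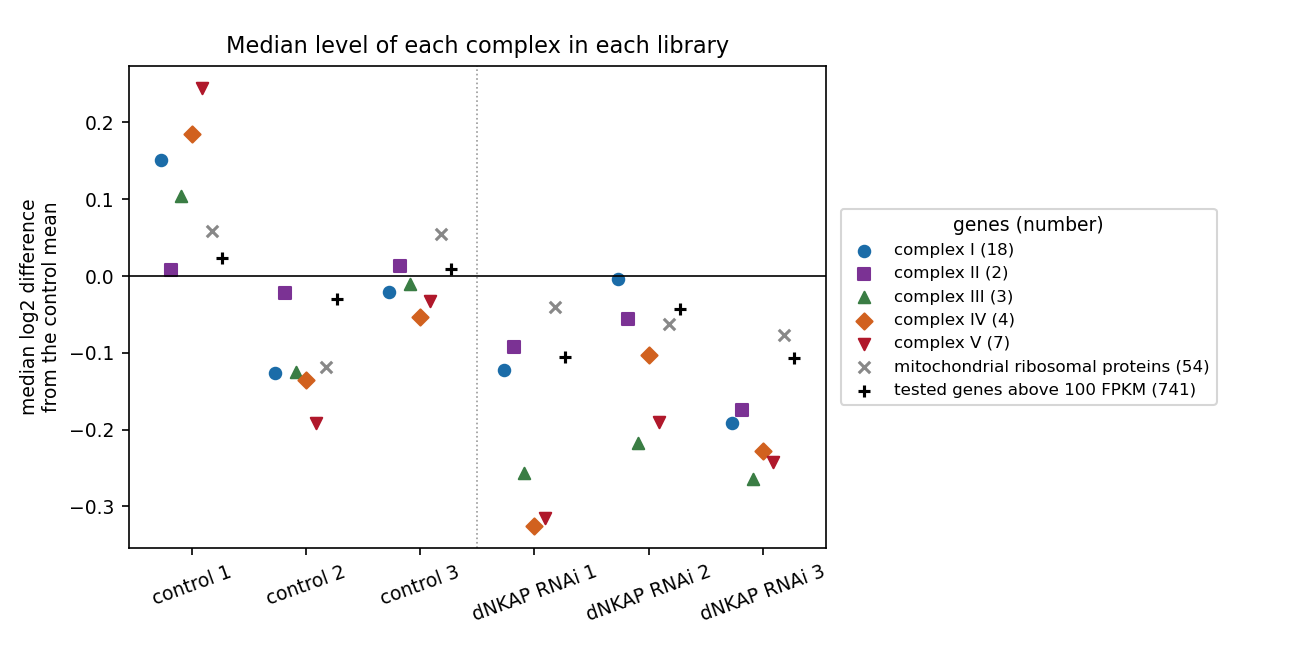
Median log2 difference from the control mean (vertical axis) in each library, for the genes of each complex above 0 in every library and, for comparison, mitochondrial ribosomal protein genes and all tested genes above 100 FPKM; numbers of genes are in the legend. Complex V moves most among the controls, from 0.24 in control 1 to -0.19 in control 2, a value that the dNKAP RNAi 2 library equals.

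RFeSP encodes the Rieske iron-sulphur protein of complex III, which takes an electron from ubiquinol and hands it to cytochrome c1. The gene (FBgn0021906, dm6 chr2L:1612429-1614160, minus strand) was listed at 0 in all 3 controls and at 33.5, 40.2 and 33.6 FPKM in the dNKAP RNAi libraries (limma adjusted p = 0.000119). No fold is given against listed zeros. Those zeros have no spread, and the gene's mean reached 1 FPKM only through the dNKAP RNAi libraries. The limma p therefore largely restates that the transcript was listed in 1 group alone. The values came from 1 assembled transcript per dNKAP RNAi library, of 770, 786 and 789 bases, that shared a splice junction with the annotated one, while the annotated transcript itself was at 0 in all 6 libraries. Each table also gives a transcript's level as a percent of the most abundant isoform assembled at its locus. For RFeSP this was 46, 53 and 52%, so a more abundant isoform was assembled at that locus in each dNKAP RNAi library and has no row among those used here. The annotation has 3 RFeSP transcripts, of which 2 have no row and share the introns of the third. With annotated transcripts alone, or with genes above 0 in every library, RFeSP could not be tested. Its total level in the controls is therefore unknown, and the difference describes the listed transcript only.

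ND-MLRQ was the one gene called lower. Its product was first described as a complex I subunit, and its human homologue was later assigned to complex IV. The gene (FBgn0052230, chr3L:23339326-23345936, plus strand) was at 9.16, 5.41 and 6.65 FPKM in the controls and at 1.59, 2.43 and 1.81 in the dNKAP RNAi libraries. The groups did not overlap, and every dNKAP RNAi value was under the lowest control. The log2 change came to -1.62 with an SE of 0.25 (95% interval -2.25 to -0.99; limma adjusted p = 0.0327). It was also the least abundant of the 34 genes. The deposited confidence bounds, which cover the estimate within a library, ran from 3.25 to 7.56 FPKM in control 2 and from 0.618 to 4.24 in dNKAP RNAi 2 and so overlapped. Leaving out any 1 of the 6 libraries ended the call, with limma adjusted p from 0.0555 to 0.109.

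None of the other complex I genes passed the threshold, and the abundant ones lay close to 0. ND-MNLL, ND-ACP and ND-B12, accessory subunits of the membrane arm and the most abundant of the complex, had log2 changes of -0.03, -0.08 and -0.14, the first 2 of which turned positive with quantile normalization. ND-ACP is also the mitochondrial acyl carrier protein. Of the core subunits of the matrix arm, through which electrons pass from NADH to ubiquinone, ND-75 was at 86.8, 73.7 and 78.8 FPKM in the controls and at 74.3, 79.6 and 70.9 in dNKAP RNAi, a log2 change of -0.09 (95% interval -0.30 to 0.12). ND-23 changed by -0.15 (-0.37 to 0.08), ND-30 by -0.31 (-0.64 to 0.03) and ND-20 by 0.02 (-0.22 to 0.26), which turned negative with median-ratio scaling. These intervals exclude a doubling or a halving, and no call was made for any of them.

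ND-49, a core subunit at the quinone site, was at 62.6, 70.8 and 58.8 FPKM in the controls and at 37.6, 48.1 and 49.1 in dNKAP RNAi (log2 change -0.51 ± 0.13, SE; limma adjusted p = 0.122). Of the 70.8 in control 2, 30.02 came from an assembled fragment of 698 bases. With annotated transcripts alone control 2 was at 40.8, the groups overlapped and the change was -0.25 (limma adjusted p = 0.609). In dNKAP RNAi 1 the listed ND-49 transcript was 42% of the most abundant isoform, which has no row used here. ND-15, an accessory subunit named after its values were seen, was at 153.6, 124.8 and 149.8 FPKM against 104.6, 106.1 and 92.6 (log2 change -0.49 ± 0.11, SE; limma adjusted p = 0.0805). It was called with median-ratio scaling (limma adjusted p = 0.0487) and among genes whose most abundant isoform was listed in every library (0.0423), where 1.79% of genes were called lower. Its exons overlap those of CG3436 on the same strand, which was listed at 0 throughout.

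Single libraries set the highest positive changes of complex I. ND-13B, a subunit of the arm that reaches into the matrix, was at 55.2, 12.8 and 67.2 FPKM in the controls and at 56.2, 55.8 and 57.3 in dNKAP RNAi; in control 2 its listed transcript was 26% of the most abundant isoform. The log2 change was 0.62 with all libraries and -0.11 without control 2. ND-18, also of the matrix arm and named after its values were seen, was at 175 FPKM in dNKAP RNAi 2 and between 76.4 and 88.8 in the other libraries. CG12204 overlaps it on the other strand and was listed at 0 in that library and at 14.68 to 19.8 in the others. Whether strand was used is not given in the sources used here, and the log2 change of ND-18 was -0.03 without dNKAP RNAi 2. Neither gene passed the threshold.

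In complex II, SdhA, the flavoprotein that oxidises succinate, was at 125.7, 135.3 and 131.3 FPKM in the controls and at 127.5, 124.5 and 116.3 in dNKAP RNAi. SdhB, the iron-sulphur subunit beside it, was at 118.2, 105.3 and 113.9 against 101.2, 109.1 and 99.0. Both overlapped between groups, with log2 changes of -0.09 (95% interval -0.24 to 0.06) and -0.12 (-0.30 to 0.05). With annotated transcripts alone the change of SdhA was -0.32.

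In complex III, UQCR-C1, a core protein of the matrix side, was at 240.2, 207.8 and 233.5 FPKM in the controls and at 211.9, 229.5 and 219.8 in dNKAP RNAi, a log2 change of -0.04 (-0.23 to 0.14) that turned positive with quantile normalization. UQCR-14, a small subunit, was at 245.4, 191.6 and 214.5 against 180.8, 185.8 and 179.8, all lower in dNKAP RNAi (log2 change -0.25, limma adjusted p = 0.264). UQCR-11, another small subunit, had the second most negative change of the 34, with 27.9, 41.8 and 14.9 FPKM against 12.4, 11.6 and 13.1 (log2 change -1.04 ± 0.37, SE; limma adjusted p = 0.225). Of the 41.8 in control 2, 29.5 came from an assembled fragment of 237 bases. With annotated transcripts alone control 2 was at 12.3, the groups overlapped and the change was -0.47.

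Complex IV has 3 mitochondrially encoded core subunits, around which the nuclear ones are arranged. COX7A was at 453.2, 344.0 and 340.2 FPKM in the controls and at 265.0, 285.8 and 259.2 in dNKAP RNAi, the largest difference of the complex and without overlap (log2 change -0.48 ± 0.13, SE; limma adjusted p = 0.135). COX7B was at 593.6, 485.5 and 508.0 against 402.8, 483.0 and 444.3, also without overlap (-0.25; limma adjusted p = 0.289). COX6B and COX4, the other abundant subunits, overlapped between groups and changed by -0.18 (95% interval -0.43 to 0.06) and -0.11 (-0.36 to 0.15).

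In the membrane part of complex V, ATPsynF was at 658.2, 493.9 and 552.5 FPKM in the controls and at 391.3, 466.2 and 408.9 in dNKAP RNAi (log2 change -0.42 ± 0.13, SE; limma adjusted p = 0.171). ATPsynC was at 711.0, 540.8 and 687.5 against 497.4, 512.0 and 513.6 (-0.34 ± 0.11, SE; limma adjusted p = 0.210, and 0.0277 without control 2). ATPsynB, of the stalk that holds the enzyme still, was at 477.5, 359.6 and 354.7 against 303.5, 344.7 and 319.1 (-0.29, limma adjusted p = 0.317). All 3 were lower in every dNKAP RNAi library than in any control. Of the ATPsynF values in dNKAP RNAi, 47.2, 53.0 and 51.9 FPKM came from an isoform with no value above 0 in the controls. For ATPsynC the listed transcript was 59 to 76% of the most abundant isoform, so its value is partial in all 6 libraries. For ATPsynD and ATPsynO it was 48 to 58% and 72 to 93%, so the summed level of complex V can be partial too.

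The catalytic part of complex V was less clear. ATPsyngamma, the shaft that turns inside it, was at 376.1, 281.3 and 285.4 FPKM against 250.3, 287.3 and 266.2 (log2 change -0.22, 95% interval -0.56 to 0.12). ATPsynbeta was at 443.5, 242.7 and 282.3 against 259.8, 232.9 and 364.2, with a change of -0.15 (-0.87 to 0.56), which was 0.10 without control 1. Its assembled transcript was 958 and 965 bases long in the 2 highest libraries, control 1 and dNKAP RNAi 3, and 1310 to 1321 in the others. FPKM divides by that length. The exons of ATPsynbeta also overlap those of CG11076 on the other strand, listed at 40.7 FPKM in dNKAP RNAi 2 and at 0 elsewhere. The part of the length or of the overlap in these values was not tested. The subunit that alternates with ATPsynbeta, blw (alpha), falls outside the symbol rule. It was at 848, 640 and 629 FPKM against 574, 625 and 583 and did not pass (limma adjusted p = 0.393).

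Genes listed at 0 in some libraries and above 10 FPKM in others gave no usable comparison. ND-MWFE, a small membrane subunit of complex I, was at 360.6 FPKM in control 1 and listed at 0 in the other 5 libraries. ATPsynE, a membrane subunit of complex V, was at 159.5 in control 2 alone, SdhD, the second anchor of complex II, at 67.7 in control 1 alone, and ND-B17 at 31.3 in dNKAP RNAi 1 alone. ND-19, an accessory subunit of complex I, was listed at 0 in dNKAP RNAi 1 and at 51.4 to 77.5 in the others. COX5A was at 64.1 in control 3, 54.1 in dNKAP RNAi 1 and 49.8 in dNKAP RNAi 2, where it was 15 to 19% of the most abundant isoform, and listed at 0 elsewhere. ATPsynG was at 78.9, 0 and 66.2 against 39.1, 42.9 and 46.7, at 11 to 15% of the most abundant isoform. ND-51, the NADH-binding subunit of complex I, was listed at 9.10 FPKM in dNKAP RNAi 1 and at 0 elsewhere. Over the 44 tested genes the most abundant isoform of the locus was listed in all 6 libraries for 29.

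Of the 13 subunit genes in mitochondrial DNA, 9 were tested, and the sum over these 9 was 463, 467 and 271 FPKM in the controls and 218, 281 and 186 in dNKAP RNAi. All 9 had lower means (median log2 change -0.82), limma called 0 of them with 5 at an unadjusted p under 0.05, and control 3 lay among the dNKAP RNAi libraries. Mitochondrial ribosomal protein genes, nuclear genes for the same organelle, had a median of -0.05 over 58 tested, of which limma called 0 with 7 at an unadjusted p under 0.05. Tricarboxylic acid cycle genes, which supply NADH and succinate, had a median of -0.03 over 10, of which limma called 0 with 0 at an unadjusted p under 0.05. Assembly factors had a median of 0.04 over 12, with 0 called and 2 at an unadjusted p under 0.05; 14 of 38 names on the assembly list were matched. Of 13 regulators of mitochondrial genes 1 rose: PolG1, the mitochondrial DNA polymerase, from 8.07, 7.20 and 7.66 to 10.95, 11.2 and 10.8 FPKM (log2 change 0.50, limma adjusted p = 0.0426). Leaving out any 1 library ended that call, as did no filter, a mean of at least 5 FPKM, quantile normalization and annotated transcripts alone (limma adjusted p up to 0.136). Of 9 glycolysis genes 1 rose: Hex-A, a hexokinase that takes glucose into the pathway, from 44.6, 44.4 and 44.6 to 58.9, 62.1 and 61.6 (0.45, limma adjusted p = 0.0102, and up to 0.117 over the alternatives). At an unadjusted p under 0.05 there were 3 of the 13 regulators and 2 of the 9 glycolysis genes. Over all tested genes 3.21% were called higher and 19% had an unadjusted p under 0.05. A single call in lists this short is too few to read against those shares.

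The members with the most negative changes shared chromosome regions, a pattern noticed after their values were seen and given here without a test. Of the 34 genes above 0 in every library, ND-MLRQ and UQCR-11 lie on 3L beyond 23 megabases, towards the centromere, and ND-49 and ATPsynbeta on chromosome 4, which is small and largely heterochromatic. ND-MLRQ, UQCR-11 and ND-49 had the 3 most negative changes, of which that of ND-MLRQ passed the threshold; those of UQCR-11 and ND-49 shrank to -0.47 and -0.25 with annotated transcripts alone. Over the 17 other tested genes on 3L beyond 23 megabases the median log2 change was -0.49, with 15 lower; limma called 0 of them, and 3 had an unadjusted p under 0.05. Over the 39 other tested genes of chromosome 4 it was -0.32, with 27 lower; limma called 0, and 6 had an unadjusted p under 0.05. The remaining arms had medians of 0.02 to 0.06 over genes above 0 in every library. On those arms the members' own medians were still negative, from -0.22 on 2L to -0.06 on X, and all 8 members on 3R were lower. A further complex I gene at that end of 3L, ND-AGGG, was at 1.603 FPKM in control 1, 0.384 in dNKAP RNAi 1 and listed at 0 elsewhere.

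**Figure D5:**
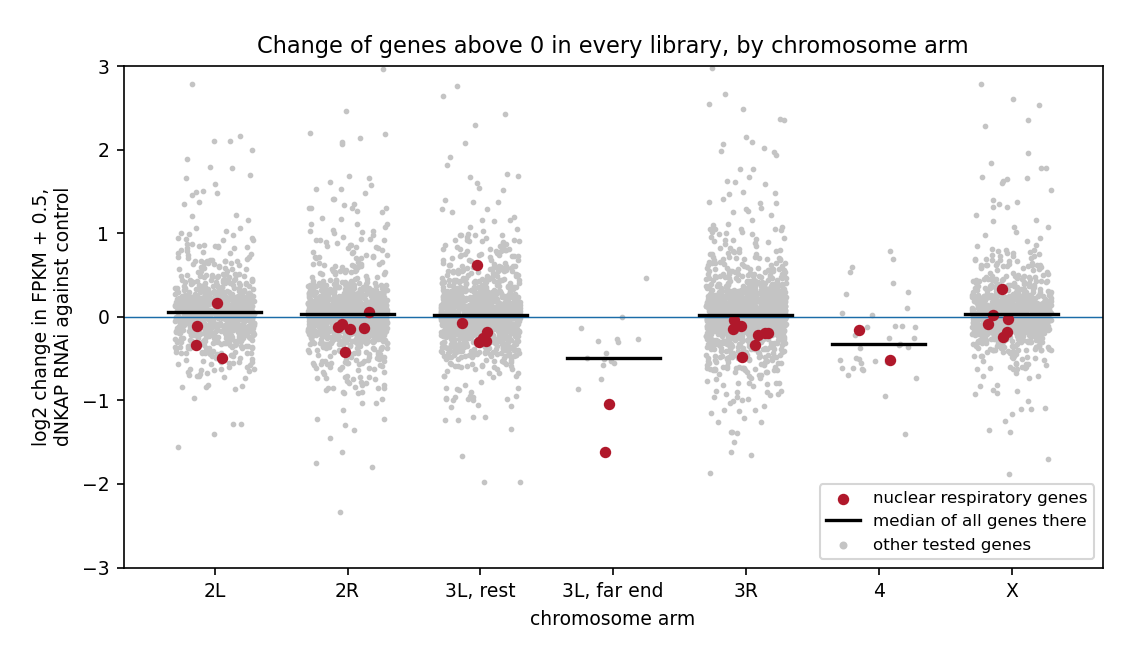
Log2 change in FPKM + 0.5 between dNKAP RNAi and control (vertical axis) of tested genes above 0 in every library, by chromosome arm, with 3L split at 23 megabases. Red points are nuclear respiratory genes, grey points other genes and black bars the median of all genes of the arm; the bars lie at -0.49 for the far end of 3L and -0.32 for chromosome 4, and 21 genes beyond 3 log2 units are not drawn.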

How the data were processed

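Per the labels' protocols, Trizol was used to extract RNA and an Illumina NextSeq to read the libraries. The authors deposited 1 table of assembled transcripts per library, with FPKM and its confidence bounds, coverage (a signal: the average depth of reads on a transcript) and each transcript's percent of the most abundant isoform of its locus, per the file headers. The submitters' processing notes name FastQC, HTSeq, DESeq and build dm6; for versions, aligner and strand the sources used here give nothing. No count columns were used, so depth was taken as coverage times length.

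A gene's value was the sum of the deposited FPKM over transcripts classed as an exact match, contained, sharing a junction or otherwise overlapping its exons. Of 17525 genes 17429 were named through the Ensembl BDGP6 annotation (the same build) or FlyBase names. Other classes held 0.267% to 0.315% of FPKM in the controls and 0.527% to 3.70% in the dNKAP RNAi libraries. Groups came from the titles. Every gene whose mean reached 1 FPKM entered a limma fit (limma 3.58.1 in R 4.3.3, with a mean-variance trend) of log2(FPKM + 0.5), two-sided, Benjamini-Hochberg adjusted, with a threshold of 0.05. On simulated data for this comparison (5511 genes, 200 changed) it recovered 47.8%, 71.6% and 89.4% of 1.5-, 2- and 4-fold changes, with 4.80% false calls. Figures were drawn with matplotlib 3.10.9; tables were built with pandas 2.3.3 and numpy 2.4.6 in Python 3.11.15.

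The members, lists and named genes were chosen with earlier results of these data known. Named genes were those past the threshold, RFeSP, the 3 most abundant and the largest rise and fall of each complex, catalytic subunits, genes listed at 0 in some libraries and above 10 FPKM in others, and up to 3 genes per context list. Alternatives changed the pseudocount, filter, scaling, transcript classes, trend, replicate block and libraries. Promoter motifs and protein comparisons were not analysed here.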

Additional observations from a re-analysis of the deposited data

How the results depend on the processing

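The median log2 change of the tested members stayed negative under all 18 alternatives, from -0.24 to -0.07, and so did the summed difference of every complex under the 9 alternatives tried for it, where complex II went from -7.13% to -12.6% with annotated transcripts alone. The count of members called higher fell from 1 to 0 with annotated transcripts alone and with genes above 0 in every library. It also fell to 0 with the most abundant isoform listed in every library (chosen after seeing the data). RFeSP could not be tested in these. It was called in the other 15, all of which rest on the same listed zeros in the controls. The count called lower was 0 with no filter, a mean of at least 5 FPKM or the replicate block, 2 with median-ratio scaling and with the most abundant isoform listed, and 0 to 1 when 1 library was left out. Over all genes, calls lower numbered 60 with no filter, 61 with median-ratio scaling, 62 with quantile normalization, 59 with genes above 0 in every library, 85 with the most abundant isoform listed and 28 to 34 with 1 library left out, beside 33. Calls higher were 126 to 159 with 1 library left out, beside 209. The share of calls that were higher was 86.4%, against 76.9% and 75.1% with the 2 scalings. Signs were followed for chosen genes only, which leaves out tested members such as ND-39 and ATPsynO. They turned for 8 of the genes followed, none past the threshold. These included ND-20 (-0.014 with median-ratio scaling) and, with quantile normalization, UQCR-C1 (0.071), ND-MNLL (0.091) and ND-ACP (0.031). With 1 library left out, log2 changes ran from -0.047 to 0.10 for ND-20, -0.087 to 0.049 for ND-MNLL, -0.15 to 0.0099 for ND-ACP, -0.34 to 0.099 for ATPsynbeta, -0.11 to 1.06 for ND-13B, -0.016 to 0.13 for ND-B14.7 and -0.027 to 0.52 for ND-18. The cause of these differences was not tested beyond the genes and samples each alternative drops. Correlations between the deviations of same-numbered libraries were small, at 0.017, 0.068 and 0.064, none above 0.1. Control 1 was closest to dNKAP RNAi 2, while controls 2 and 3 were each closest to the library of their own number. Whether the numbers share a source is not given, and correlations this small cannot settle it. With the replicate block 72 genes were higher and 5 lower, and RFeSP was the only member called (limma adjusted p = 0.0210). The calls of CG6066 (limma adjusted p = 0.134), Hex-A (0.117) and PolG1 (0.208) were lost with that block.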
